A study of Mus musculus with 12 samples.

Results

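Mup3, Mup7, Mup14, Mup19, Mup20 and Mup21 are 6 of the 21 numbered major urinary protein (Mup) genes in a table of mouse liver transcripts that holds 22959 genes. All 6 had values, in 18 of the 152210 transcript rows of the table, and all 6 averaged at least 0.5 FPKM, as asked of each gene that entered a test. They were chosen with their levels in these same livers known, and were selected on the differences between the diet groups in FPKM, so these differences are given below as a description, with no test. FPKM is a level in fragments that takes both the length of a transcript and the size of a library into account.

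The livers came from 12 male C57BL/6J mice, 3 per group, that were housed singly and were 21 weeks old at sampling. For 16 weeks the mice ate a normal diet (ND), a high-fat diet (HFD), the high-fat diet with an ethanol extract of chrysanthemum leaves at 1.5% of its weight (CLE), or the high-fat diet with luteolin, a plant flavonoid, at 0.003% of its weight (LU). The CLE and LU mice thus ate the high-fat diet as well. Mice are named by the numbers on their labels, ND 2, 3 and 4, HFD 12, 15 and 18, CLE 2, 4 and 11, and LU 2, 3 and 8.

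Major urinary proteins are small lipocalins, barrel-shaped carriers that hold a volatile ligand in a central pocket. Adult male mice make them in the liver, release them into the blood and pass them into the urine, where they serve as scent marks. Their transcription is known to follow pulsed growth hormone, which acts through its receptor, the kinase JAK2 and the transcription factor STAT5B, and it also answers to thyroid hormone and glucocorticoid. The protein of Mup20, called darcin, is the one that draws females to the scent of a male.

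The coding sequences show how far the 6 genes can be told apart, since a fragment can be given to a gene only where its letters differ from those of the others. The same stretch of the coding sequence, 100 bases from a shared start, is shown for each main transcript in the GENCODE M21 annotation, with capitals where a base differs from Mup7.
Mup7: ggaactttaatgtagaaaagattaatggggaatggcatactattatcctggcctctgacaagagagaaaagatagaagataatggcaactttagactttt
Mup14: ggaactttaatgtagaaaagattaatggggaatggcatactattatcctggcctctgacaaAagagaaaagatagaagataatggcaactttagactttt
Mup19: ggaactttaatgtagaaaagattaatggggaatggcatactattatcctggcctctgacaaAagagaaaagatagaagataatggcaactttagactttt
Mup20: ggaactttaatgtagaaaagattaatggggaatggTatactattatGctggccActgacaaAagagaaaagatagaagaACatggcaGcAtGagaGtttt
Mup3: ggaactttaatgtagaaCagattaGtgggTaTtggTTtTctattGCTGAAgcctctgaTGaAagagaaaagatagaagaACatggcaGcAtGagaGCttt
Mup21: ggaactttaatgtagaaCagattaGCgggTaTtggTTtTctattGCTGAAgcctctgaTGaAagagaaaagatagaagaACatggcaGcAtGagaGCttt

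Mup14 and Mup19 each had 1 base that differed from Mup7 in this stretch, Mup20 had 10, Mup3 had 23 and Mup21 had 24. Over the whole coding sequence Mup7 and Mup14 were 99.1% identical, and Mup3 and Mup21 were 94.7% identical. Mup7 was 90.1% identical to Mup20 and 82.3% identical to Mup3.

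The 6 genes lie on the minus strand of chromosome 4 within a span of 2.19 Mb that holds 22 numbered Mup genes in M21, on build GRCm38. Mup7 (ENSMUSG00000073842) runs from 60066469 to 60070475, Mup14 (ENSMUSG00000073830) from 61300023 to 61304000 and Mup19 (ENSMUSG00000078673) from 61778324 to 61782269. Mup20 (ENSMUSG00000078672) runs from 62050234 to 62054158, Mup3 (ENSMUSG00000066154) from 62083476 to 62087342 and Mup21 (ENSMUSG00000066153) from 62147932 to 62150863. Mup20, Mup3 and Mup21 were thus neighbours at one end of the cluster, with Mup7 near the other.

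The promoters fell into the same sets. A stretch around the letters ATCAATAA, which are in capitals and which all 5 members with a RefSeq promoter hold, is shown on GRCm38.p6 and the minus strand. The letters begin 19 bases before the RefSeq start of Mup7, so that this stretch runs 9 bases into the gene, and 94 to 152 bases before the start of the other 4, whose stretches lie wholly before it. Mup20 had no entry.
Mup7, chr4:60070467-60070544: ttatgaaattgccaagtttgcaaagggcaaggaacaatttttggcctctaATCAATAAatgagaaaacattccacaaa
Mup14, chr4:61304073-61304150: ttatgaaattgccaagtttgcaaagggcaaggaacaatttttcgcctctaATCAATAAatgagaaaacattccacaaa
Mup19, chr4:61782349-61782426: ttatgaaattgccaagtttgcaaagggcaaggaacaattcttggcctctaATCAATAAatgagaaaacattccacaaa
Mup3, chr4:62087390-62087467: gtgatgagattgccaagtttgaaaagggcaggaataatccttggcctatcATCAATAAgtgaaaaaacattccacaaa
Mup21, chr4:62150908-62150985: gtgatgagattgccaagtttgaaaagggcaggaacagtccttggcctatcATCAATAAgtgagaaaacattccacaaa

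The Mup7 stretch differed from that of Mup14 at 1 position and from that of Mup19 at 1, and the Mup3 stretch differed from that of Mup21 at 3. Between Mup7 and Mup3, 12 of 79 aligned positions differed. ATCAATAA, read on both strands over 300 bases around the start, was found in 5 of 5 of these promoters and in 0.718% of 32851 promoters. It was in 14 of 14 promoters of numbered Mup genes, these 5 among them, so it is not particular to the members. These letters were picked because all 5 hold them. The letters usually given for STAT5 sites, TTCNNNGAA (N for any base), do not overlap ATCAATAA here. They were in 0 of 5, in 0 of 14 promoters of numbered Mup genes and in 8.30% of all promoters. This says only that these letters are not in this window.

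How much of each transcript is its own differed greatly among the 6 genes. Of the windows of 100 bases, the read length, 96.8% of Mup3, 95.5% of Mup21 and 61.2% of Mup20 occurred in no other gene. For Mup7 the share was 12.9%, for Mup14 12.8%, and for Mup19 none of 621 windows was its own. Mup7 shared windows with 17 other genes, of which 16 were numbered Mup genes, whereas Mup3 and Mup21 shared windows with each other only and Mup20 with 1 pseudogene. The level of Mup3, Mup20 and Mup21 can therefore largely be read for the gene itself, while the values of Mup7, Mup14 and Mup19 depend on how the software divided fragments among near-identical copies.

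**Figure D1:**
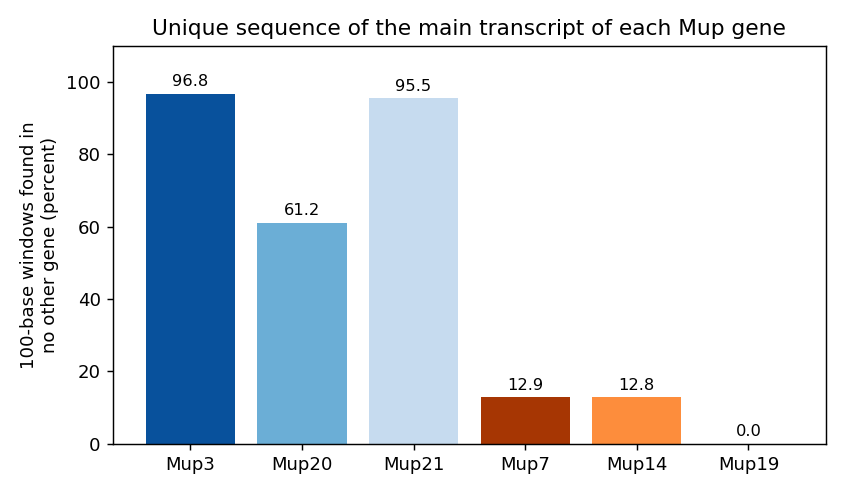
Percent of the 100-base windows of the main transcript of each gene that occur in no other gene of the GENCODE M21 annotation, 1 bar per gene. Mup3 (96.8%) and Mup21 (95.5%) are almost wholly distinct, Mup20 is at 61.2%, and Mup7 (12.9%), Mup14 (12.8%) and Mup19 (0) are mostly or wholly shared.

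The 12 libraries were given as FPKM only, so no depth or counting error can be stated. A listed 0 can be a failed estimate, since albumin, the most abundant liver protein, was listed at 0 in 11 of 12 livers. Among 10 hepatocyte markers, the other 9 were present in every liver, and no marker passed between HFD and ND. Over the 11999 genes tested, the median difference of HFD from ND was 0.11 on the log2 scale, and -0.01 after median-of-ratios scaling, so the differences below are to be read against that shift. LU 8 had the lowest Mup7, Mup14, Mup19, Mup3 and Mup21 and the highest Mup20 of its group, and the differences and means that leaving it out moves most are given with and without it. In whole liver, fewer cells of a type and less RNA per cell cannot be told apart.

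Mup3 was the most abundant of the 6 genes in the ND livers, at 8251, 5987 and 8211 FPKM, and in the HFD livers it stood at 3743, 3425 and 3396. The CLE livers had 5349, 7459 and 8919 FPKM, and the LU livers 7856, 9097 and 4857. All 3 HFD livers thus lay below every other liver, and they were tightly grouped, with a mean of 3521 ± 192 FPKM (SD, n = 3) against 7483 ± 1296 in ND. The means of CLE (7242 ± 1795) and LU (7270 ± 2180) were 96.8% and 97.2% of the ND mean, and that of LU was 113.3% without LU 8.

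Mup20, which encodes darcin, had 3480, 2661 and 4099 FPKM in the ND livers and 2427, 1463 and 1662 in the HFD livers. It stood at 4823, 3266 and 4263 FPKM in CLE and at 4253, 3915 and 7037 in LU. The HFD livers were again below all others, but by the smallest ratio of the 6 genes, with a mean at 54.2% of that of ND. The CLE mean was 120.6% and the LU mean 148.5% of the ND mean, and 119.7% without LU 8, which had the highest Mup20 level of the 12 livers.

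Mup21, the least abundant member in ND, had 616, 475 and 396 FPKM in ND and 113, 97.9 and 124 in HFD. The CLE livers had 228, 193 and 295 FPKM and the LU livers 333, 462 and 141. Every HFD liver was below every liver of the other groups, with a mean at 22.5% of ND. Unlike Mup3 and Mup20, Mup21 had no CLE liver within the ND range, and the means were 48.1% of ND in CLE and 62.9% in LU, or 80.2% in LU without LU 8.

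Mup7 showed the widest span of the 6 genes. It had 4840, 2938 and 1957 FPKM in ND and 252, 66.0 and 195 in HFD, so that the HFD mean was 5.27% of the ND mean. In CLE it stood at 2010, 824 and 2572 FPKM, and in LU at 5006, 7116 and 457. The HFD livers did not overlap with any group, while LU 8, at 457, was the lowest liver outside HFD and the LU values spanned 15.6-fold. The CLE mean was 55.5% of the ND mean and the LU mean 129.2%, or 186.8% without LU 8.

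Mup14, nearly identical to Mup7 in its coding sequence, had 2440, 1481 and 1188 FPKM in ND and 269, 80.9 and 153 in HFD. CLE had 1711, 426 and 1897 FPKM, and LU had 2638, 4122 and 736. The order of the livers was close to that of Mup7, with CLE 4 the lowest CLE liver and LU 8 the lowest LU liver for both genes. The HFD mean was 9.84%, the CLE mean 79.0% and the LU mean 146.7% of the ND mean. Without LU 8 the LU mean was 198.5%.

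Mup19 had 3331, 2140 and 2857 FPKM in ND and 1475, 433 and 233 in HFD. It had 2841, 2341 and 3141 FPKM in CLE and 5639, 7597 and 1656 in LU. The groups did not overlap with HFD, although HFD 12, at 1475, came near to LU 8, at 1656. The HFD mean was 25.7%, the CLE mean 99.9% and the LU mean 178.8% of the ND mean. Without LU 8 the LU mean was 238.4%. As no 100-base window of Mup19 was its own, these values depend on how fragments were divided among copies.

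**Figure D2:**
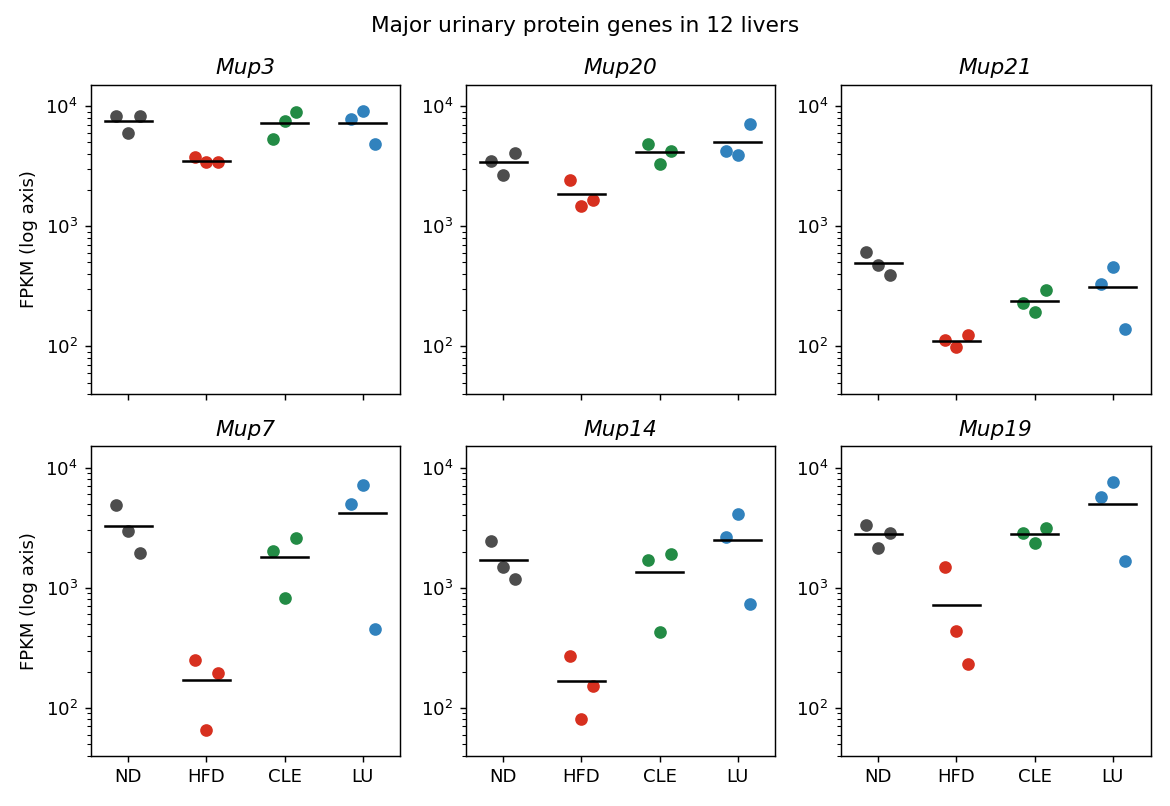
FPKM of the 6 genes in each of the 12 livers on a log axis, 1 point per mouse in label order, with the group mean as a line. In all 6 panels the 3 HFD livers lie below the livers of the other groups, by least for Mup20 and by most for Mup7, and the lowest LU point is LU 8 in 5 of 6 panels.

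Summed, the 6 genes came to 22958, 15682 and 18707 FPKM in ND and to 8278, 5566 and 5765 in HFD. The CLE livers had 16960, 14509 and 21087 FPKM and the LU livers 25725, 32308 and 14884. As a share of the FPKM of all 22959 genes in a library, the sum ranged from 2.94% to 4.11% in ND and from 0.989% to 1.34% in HFD. The share was 2.28% to 3.49% in CLE and 2.56% to 5.31% in LU. Albumin added 19853 FPKM to the total of an LU liver, while it was listed at 0 in 11 livers. The HFD mean of the sum was 34.2% of that of ND, the CLE mean was 91.6% and the LU mean 127.2%, or 151.8% without LU 8. All numbered Mup genes together averaged 25859 FPKM in ND, 10755 in HFD, 25294 in CLE and 29192 in LU. Mup3, Mup20 and Mup21, of mostly distinct sequence, summed to 9123 to 12705 FPKM in ND and 12035 to 13473 in LU. The size of the LU percentages thus depends on the copies summed, and the part of shared fragments was not tested.

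All 6 genes were lower in every HFD liver than in any ND liver, a pattern that 7.46% of the 11999 genes tested also had, and nothing is read from this count because the choice of the genes used this contrast. The differences on the scale of log2(FPKM + 1) were -4.34 ± 0.85 (SE) for Mup7, -3.43 ± 0.66 for Mup14, -2.36 ± 0.60 for Mup19, -2.12 ± 0.34 for Mup21, -1.07 ± 0.25 for Mup3 and -0.89 ± 0.27 for Mup20. The difference of the sum was -1.55 ± 0.31. The genes with mostly distinct sequence, Mup3, Mup20 and Mup21, had the 3 smallest differences, and their own sum differed by -1.05. Of Mup19, leaving out HFD 12 gave -3.10 and leaving out HFD 18 gave -1.77.

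Macrophage and stellate cell markers moved with the high-fat diet as well. The summed level of 8 macrophage markers was 106 to 119 FPKM in ND and 156 to 232 in HFD, and 4 of the 8 were called higher in HFD, where limma called 9.77% of all 11999 genes higher. For 7 stellate cell markers the sums were 82.5 to 113 and 140.2 to 176 FPKM, with 4 of 7 higher. Albumin was listed at 0 in all these livers. The 9 other hepatocyte markers summed to 51794 to 56503 FPKM in ND and 67251 to 82146 in HFD, with none called in either direction. The part of hepatocytes and of the other cell types in the Mup differences was not tested.

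Both supplemented diets were set against HFD, and these comparisons share the 3 HFD livers with each other and with the comparison of HFD with ND. All 6 genes were higher in every CLE liver than in any HFD liver, against 16.3% of all genes tested, and the same held for LU, against 13.3%. In CLE the differences were 3.44 ± 0.85 for Mup7, 2.89 ± 0.66 for Mup14, 2.37 ± 0.60 for Mup19, 1.17 ± 0.27 for Mup20, 1.07 ± 0.34 for Mup21 and 1.01 ± 0.25 for Mup3, and the sum differed by 1.43. Mup14 differed by 3.58 without CLE 4, and Mup19 by 3.11 without HFD 12 and 1.78 without HFD 18. In LU they were 4.09 for Mup7, 3.73 for Mup14, 2.96 for Mup19, 1.44 for Mup20, 1.32 for Mup21 and 1.00 for Mup3, with the same standard errors, and the sum differed by 1.85. Without LU 8, Mup7 differed by 5.32, Mup14 by 4.45, Mup19 by 3.62, Mup21 by 1.81, Mup3 by 1.26 and Mup20 by 1.17, and the sum by 2.16. Without LU 3, Mup7 differed by 3.34, Mup14 by 3.21, Mup19 by 2.52 and Mup21 by 0.96, and Mup19 differed by 3.70 without HFD 12 and by 2.37 without HFD 18.

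Between CLE and LU, where 0.00833% of all genes passed in limma, no member separated, against 4.66% of all genes that were higher in every CLE liver and 2.41% that were lower. The differences of CLE from LU ran from -0.84 ± 0.66 for Mup14 to 0.01 ± 0.25 for Mup3. The sum differed by -0.42, and by -0.74 without LU 8. Without LU 8, Mup7 differed by -1.88, Mup14 by -1.56 and Mup19 by -1.25, while Mup7 differed by 0.10 without LU 3 and Mup14 by -0.15 without CLE 4. CLE and LU were given at different doses, as an extract and as a single compound, so the values stand side by side only. The 5 adipocyte markers summed to 73.1 to 83.5 FPKM in HFD, 86.7 to 185 in CLE and 72.9 to 170 in LU, so the whole list did not set LU apart, and nearly all of the sum was Cidec, which the fatty liver also makes. Adipoq, at 0.759, 0.508 and 0.50 FPKM in LU and at most 0.145 in the other 9 livers, and Lep, listed at 0 in those 9 and at 0.176, 0.139 and 0.187 in LU, were noted after their values were seen. The part of fat tissue in the Mup values was not tested.

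**Figure D3:**
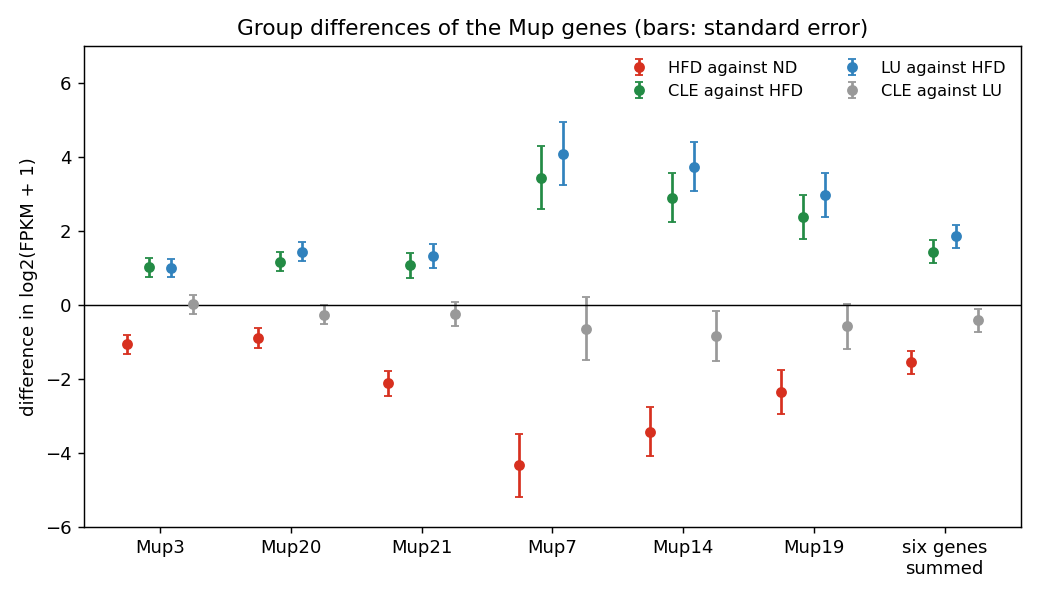
Difference in log2(FPKM + 1) between groups for each gene and for the sum of the 6, 1 point per comparison with its standard error, from a fit over all 12 livers. HFD lies below ND for each gene (from -0.89 for Mup20 to -4.34 for Mup7), CLE and LU lie above HFD, and CLE against LU lies between -0.84 and 0.01.

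The make-up of the sum differed between HFD and ND, where the shares of Mup3, Mup7, Mup14 and Mup20 did not overlap. Between CLE and LU the shares of every member overlapped. Those of Mup7, Mup14 and Mup19 also depend on how fragments were divided among near-identical copies. Mup3 made up 35.9% to 43.9% of the 6-gene sum in ND, 45.2% to 61.5% in HFD, 31.5% to 51.4% in CLE and 28.2% to 32.6% in LU. Mup7 made up 10.5% to 21.1% in ND, 1.19% to 3.39% in HFD, 5.68% to 12.2% in CLE and 3.07% to 22.0% in LU. Mup20 made up 15.2% to 21.9% in ND and 26.3% to 29.3% in HFD. In LU 8 it made up 47.3%, against 16.5% in LU 2 and 12.1% in LU 3, so that this liver alone drew the largest part of its Mup sum from Mup20.

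**Figure D4:**
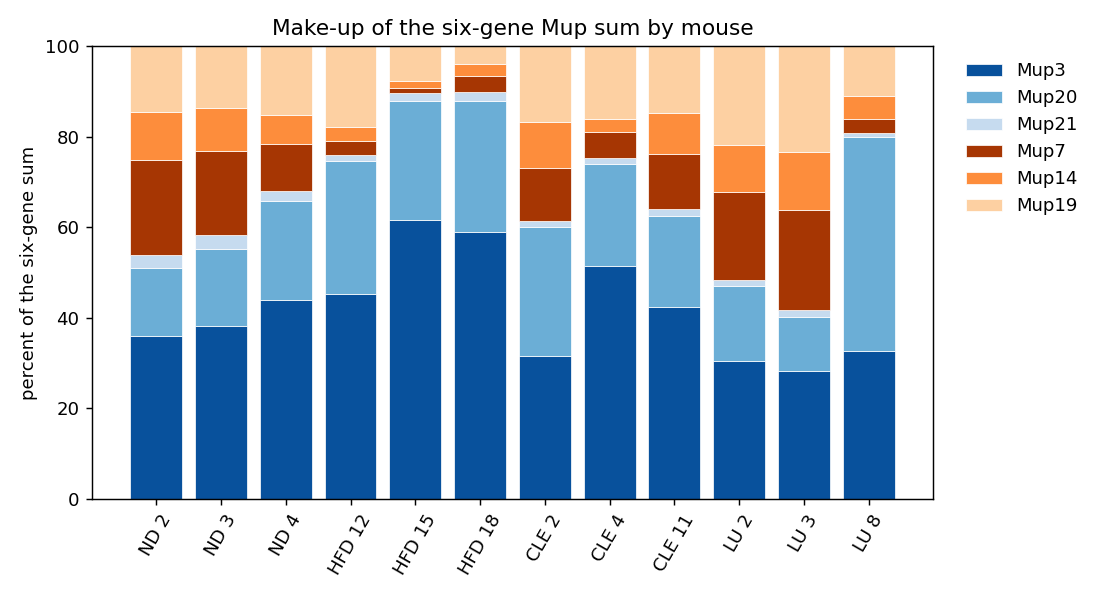
Share of each gene in the sum of the 6 genes, in percent, 1 stacked bar per mouse. Of the orange shades (Mup7, Mup14 and Mup19), Mup7 and Mup14 are smaller in the 3 HFD livers than in ND. Mup19 is not smaller in HFD 12, at 17.8% against 13.6% to 15.3% in ND. Mup3 makes up 45.2% to 61.5% in HFD. LU 8 stands apart with 47.3% from Mup20, and its Mup7 share, 3.07%, lies within the HFD range.

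In order of level, the ND mean of Mup3 (7483 FPKM) came first, followed by Mup20 (3413), Mup7 (3245) and Mup19 (2776), whose ranges overlapped, then by Mup14 (1703) and Mup21 (496). In HFD the order was Mup3 (3521), Mup20 (1851), Mup19 (714), Mup7 (171), Mup14 (168) and Mup21 (112), and the last 3 did not differ beyond their spread. The spread between mice was wider for Mup7 and Mup14 than for Mup3 and Mup20. The coefficient of variation within a group was 38.4% to 81.2% for the first pair and 5.46% to 33.8% for the second. For Mup19 it ran from 14.6% in CLE to 93.4% in HFD, the highest value of all. For Mup21 it ran from 11.7% in HFD to 51.8% in LU. Over the 12 livers the log2 levels of Mup7 and Mup14 had a Pearson correlation of 0.98, while Mup20 and Mup21 had 0.40, as a description of points that share libraries and, for Mup7 and Mup14, fragments.

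Of the other numbered Mup genes, 14 of 15 averaged at least 0.5 FPKM, and Mup4 did not. Their median difference of HFD from ND was -0.83, beside -2.24 for the 6 members and 0.11 for all genes. In HFD, 8 of the 14 were below every ND liver, against 7.46% of all genes tested. In CLE 6 of the 14, and in LU 4, were above every HFD liver, against 16.3% and 13.3%. All of the 14 but Mup6 share windows of the read length with Mup7, so these are not counts of independent values. The part of shared fragments in the levels below was not tested. Mup15 and Mup16 stood out by size, with mean levels of 294 and 280.3 FPKM in ND and 20.1 and 8.29 in HFD. Their differences were -4.08 ± 0.92 and -4.28 ± 0.74. Mup16 was at 656, 132 and 52.5 FPKM in the ND livers, so its ND mean rests largely on ND 2. Mup10, the most abundant of those that separated, had 2176, 1874 and 2307 FPKM in ND and 1623, 1248 and 1168 in HFD. Mup1, at 259 FPKM in ND and 63.3 in HFD, differed by -2.03 ± 0.54.

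Not every copy followed the members. Mup2 differed by 0.13 ± 0.53, Mup11 by -0.27 ± 0.76 and Mup6 by -0.23 ± 0.17 between HFD and ND. Mup9 was listed at 358, 4523 and 3995 FPKM in ND and at 0 in LU 3, and Mup18 at 648 FPKM in HFD 18 and at 0.506 and 0.443 in the other 2 HFD livers. Both share 100-base windows with Mup7, as do Mup2 and Mup11 but not Mup6, and the part of shared fragments in these values was not tested. The remaining 5 genes, Mup5, Mup8, Mup12, Mup13 and Mup17, lay between -0.81 and -2.03. The 6 members held 66.4% to 82.6% of the FPKM of all numbered Mup genes in ND, 59.3% to 62.7% in HFD, 64.6% to 74.9% in CLE and 81.2% to 84.1% in LU.

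Genes of growth hormone signalling, among them its targets Igf1, Igfals, Cish and Socs2, and liver transcription regulators and hormone receptors were tested with limma, with p-values adjusted over all 11999 genes. Of these 23 genes, 1 rose and 1 fell in HFD against ND, where 9.77% of all genes rose and 2.03% fell. Socs2, a feedback inhibitor of growth hormone signalling and itself a STAT5 target, was at 40.3, 62.6 and 16.3 FPKM in ND and at 2.04, 2.72 and 4.62 in HFD. It fell by 3.16 on the log2 scale, with an adjusted p of 0.00366. Stat5a, a close relative of Stat5b, rose by 0.78 from 4.26 to 7.86 FPKM (adjusted p = 0.0196). The call of Stat5a was lost in 5 of the 6 fits that left out 1 mouse.

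Stat5b, the factor that carries the growth hormone signal to the Mup genes, was at 14.0, 13.0 and 19.2 FPKM in ND and at 15.1, 17.1 and 15.7 in HFD, a difference of 0.07 ± 0.14 (limma, adjusted p = 0.804). Of the listed genes with the highest levels that did not pass, Igf1, the growth factor induced by growth hormone, differed by -0.23 (adjusted p = 0.291), Hnf4a by 0.05, Cebpa by -0.04 and Igfals by -0.12. Cish, another STAT5 target, was at 3.08, 19.2 and 3.86 FPKM in ND, and Onecut1 at 10.8, 90.3 and 9.65. Both genes were high in the same pair of livers, ND 3 and LU 3, where Cish stood at 19.2 and 21.6 FPKM and Onecut1 at 90.3 and 44.9. Socs2 was at 62.6 and 33.2 FPKM there, with ND 2, at 40.3, between them. Stat5b, Cish and Onecut1 were named after their values were seen.

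In CLE against HFD none of the 23 genes rose and 1 fell, where 2.55% of all genes rose and 3.18% fell. Ghr, the growth hormone receptor, fell by 0.75 on the log2 scale, from a mean of 324 FPKM to 193 (adjusted p = 0.0222). The call was lost without HFD 12, HFD 15, HFD 18 or CLE 4, which left none of the 23. Without CLE 2 the count was 5, where 2269 of all genes passed. In LU against HFD 0 of 23 passed in limma, and 9 had an unadjusted p under 0.05, as did 2448 of all 11999 genes. There Ghr differed by -0.54 (adjusted p = 0.0943). Socs2 differed by 0.81 in CLE and by 1.77 in LU, with adjusted p-values of 0.351 and 0.127.

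Male-biased liver genes, which like the Mup genes depend on pulsed growth hormone, were mostly lower in HFD. Of 16 such genes, 12 fell and none rose, where 2.03% of all genes fell. Their median difference was -1.59 beside 0.11 for all genes. This list, like the others here, was chosen with earlier results of these data known. Its counts and p-values therefore only describe these livers. Hsd3b5, a steroid reductase found in the male liver, was at 45.02, 97.9 and 39.1 FPKM in ND and at 0.600, 0.169 and 1.00 in HFD. It fell by 5.19 on the log2 scale (limma, adjusted p = 0.00198). Slco1a1, an organic anion transporter, fell by 3.28 from 160.4 to 15.9 FPKM, and Ugt2b38, a glucuronosyltransferase, fell by 2.30.

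Cyp4a12b, a fatty acid hydroxylase, fell by 2.09, Cyp7b1, which hydroxylates oxysterols, by 1.96, and Elovl3, a fatty acid elongase, by 1.48. These 6 genes, from Hsd3b5 to Elovl3, kept their call whichever of the 6 mice was left out. The other 6 that fell were Serpina1e, Cyp4a12a, Nudt7, Moxd1, Susd4 and C6, with decreases of 0.93 to 2.52, and each lost its call without at least 1 mouse. The count was 6 without HFD 15, 7 without ND 2 or ND 3 and 8 without HFD 12. Of the 4 that did not pass, Selenbp2 differed by -2.13, Gstp1 by -0.75, Cyp2d9 by -0.17 and Cyp2u1 by 0.54.

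In CLE against HFD 5 of the 16 male-biased genes rose and none fell, where 2.55% of all genes rose. They were Hsd3b5 (3.64), Serpina1e (2.76), Cyp4a12b (2.03), Slco1a1 (1.90) and Elovl3 (1.17). In LU 3 rose, where 0.283% of all genes rose, namely Hsd3b5 (3.86), Slco1a1 (1.97) and Cyp4a12b (1.85). Only Cyp4a12b kept its call in both comparisons whichever mouse was left out. It was at 13.6, 15.9 and 20.4 FPKM in HFD, at 80.6, 58.3 and 73.9 in CLE and at 55.0, 83.6 and 51.5 in LU. The count in CLE was 8 without CLE 2, 3 without HFD 18 or CLE 11, 2 without CLE 4 and 1 without HFD 12 or HFD 15. That in LU was 7 without LU 8, 2 without HFD 12 or HFD 18, and 1 without HFD 15, LU 2 or LU 3. In LU 8 the levels of Hsd3b5 (3.03 FPKM), Cyp7b1 (32.5), Slco1a1 (35.4) and Serpina1e (132) were the lowest of the LU livers, as for Mup7.

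Of 20 female-biased genes, which are held low in males, 10 were high enough to be tested, and 6 rose and 1 fell in HFD against ND. All 6 averaged under 0.5 FPKM in ND, and 4 of them, Cyp2a4, Cyp2b10, Cyp2b13 and Hao2, would not have been tested without their HFD values, so the filter on low values partly fixed this count and nothing is read from it. Cyp2b9, a cytochrome of the female liver, was at 0.0592, 0.314 and 1.08 FPKM in ND and at 68.7, 110.8 and 59.3 in HFD, and it rose by 5.77 (limma, adjusted p = 9.45e-05). Sult1e1, the oestrogen sulfotransferase, rose by 3.26 from 0.225 to 11.3 FPKM. Cyp2a4 rose by 2.26, Cyp2b13 by 1.61, Hao2 by 1.54 and Cyp2b10 by 1.41. Cyp17a1, an enzyme of steroid synthesis, fell by 2.84 from 39.0 to 4.61 FPKM and stayed between 2.25 and 4.89 FPKM in the CLE and LU livers.

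The female-biased genes that rose in HFD were mostly lower in the supplemented livers. Cyp2b9, Sult1e1, Cyp2a4, Hao2 and Cyp2b10 fell in CLE against HFD and also in LU against HFD. That was 5 of 10 in each, where 3.18% and 0.725% of all genes fell. Of the 5, Cyp2a4, Hao2 and Cyp2b10 would not have been tested without their HFD values. The filter on low values thus partly fixed these counts too, and nothing is read from them. Cyp2b9 stood at 1.48, 6.91 and 1.70 FPKM in CLE and at 1.57, 1.06 and 11.4 in LU, where LU 8 was the highest. It fell by 4.37 and 4.27. In LU the count was 7 without LU 8. The call of Cyp2b10 was lost in both comparisons without HFD 12 or HFD 15, and the other 4 kept theirs whichever mouse was left out. Abcd2, Acot3 and Fmo2, the 3 tested genes that passed in no comparison, differed between HFD and ND by 0.15, -0.25 and 0.35. Between CLE and LU no gene of the growth hormone and transcription list and no male-biased or female-biased gene passed in limma. At an unadjusted p under 0.05 there were 0, 2 and 2 of them, and 512 of all 11999 genes.

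**Figure D5:**
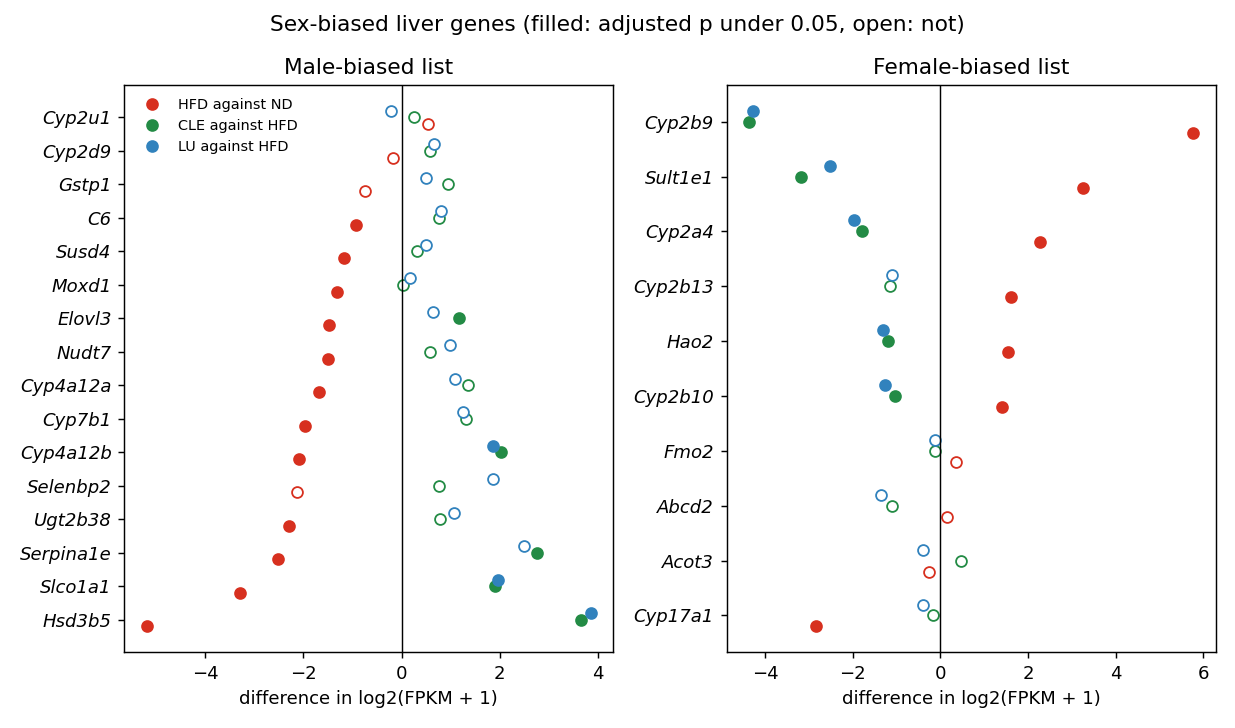
Difference in log2(FPKM + 1) of 16 male-biased and 10 female-biased genes, 1 row per gene and 1 colour per comparison, filled where the adjusted p passed and open where it did not. In HFD against ND 12 male-biased genes fell and 6 female-biased genes rose. The comparisons with CLE and LU, which share the HFD livers, point the other way for most genes that passed. The filter on low values partly fixed the female-biased counts.

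Lipocalins outside the Mup family moved in both directions. Of 13, 9 were tested, and in HFD against ND 3 rose and 1 fell, where 9.77% of all genes rose and 2.03% fell. Orm3 and Orm2, acute-phase carrier proteins, rose by 4.37 (limma, adjusted p = 2.52e-07) and 3.24 on the log2 scale, and Lcn2, which binds bacterial siderophores, rose by 3.22. Apom, the carrier of sphingosine phosphate in high-density lipoprotein, was at 132, 94.3 and 108 FPKM in ND and at 33.3, 40.3 and 29.9 in HFD, and it fell by 1.66. Orm3 fell by 1.98 in CLE and by 1.44 in LU against HFD, where 3.18% and 0.725% of all genes fell, and no other lipocalin passed there. Rbp4, the retinol carrier, Ambp, C8g and Orm1, the most abundant of those that never passed, differed between HFD and ND by -0.14, 0.44, 0.07 and 0.32. Orm copies share sequence, so their single values are uncertain, as are those of the Cyp2b, Cyp4a12 and Serpina1 genes.

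The genes outside the family whose log2 levels followed the 6-gene sum most closely were sought among the 10948 genes that averaged at least 1 FPKM. The 10 closest were Jmjd7, Mpnd, Gm3839, Cyp7b1, Hsd3b5, Cyp4a12b, Pja1, Hopx, Serpina1e and B3gnt9, with Pearson correlations of 0.90 to 0.87 over the 12 livers, and none was above 0.9. Of these 10, 4 are on the male-biased list. The points share 12 libraries in 4 diet groups, so any gene lower in HFD alone ranks high. Jmjd7 and Mpnd moved far less than the Mup genes, with differences of -0.22 and -0.19 between HFD and ND that did not pass (limma, adjusted p = 0.246 and 0.216). Hopx fell by 0.64 (adjusted p = 0.0257) and Gm3839 by 0.90 (adjusted p = 0.0393).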

How the data were processed

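RNA of 12 livers was sequenced in paired reads of 100 bases. The submitters' processing notes name CASAVA 1.8.2, Bowtie2 2.2.3, TopHat2 2.0.12 and Cufflinks 2.2.1, and the authors deposited transcript values as FPKM. The methods name normalization factors, and whether these FPKM already include them is not given in the sources used here, so levels and rescaled values are relative to the values as deposited. The build is not given in the sources used here, and 85.6% of 78786 known transcripts have the ends that GENCODE M21 gives on GRCm38. Cufflinks shares fragments out among overlapping transcripts and copies, so counts and depth are unknown. Rows were summed per gene, 142758 rows of 22959 genes.

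Groups were taken from the sample titles, which name separate mice. The 4 comparisons (HFD against ND, CLE and LU against HFD, CLE against LU) were fitted with limma 3.58.1 in R 4.3.3 on log2(FPKM + 1) with the variance trend and all 12 livers in 1 fit (12.7 degrees of freedom). Tests covered 11999 genes that averaged at least 0.5 FPKM, with Benjamini-Hochberg adjustment at 0.05, two-sided, and the fit was tested on simulated data. In HFD against ND 1415 genes passed, of which 82.8% were higher (55.0% after median-of-ratios scaling, 56.4% after quantile normalization). In CLE and LU against HFD 687 and 121 passed, and 1 in CLE against LU (512 at an unadjusted p under 0.05).

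The 6 genes and all gene lists were chosen with earlier results of these data known, and 1 listed gene is not reported here. Named are the 6 genes, other Mup genes that averaged at least 0.5 FPKM, the listed genes that passed in any comparison and up to 4 per list, by highest mean, that did not, and the 10 genes most correlated with the sum. Sequences came from M21 transcripts and RefSeq promoters, which held 5 of the 6 genes. Scaling, pseudocount, filter, choice of transcripts, variance model and mice were varied, and library depth could not be.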

Additional observations from a re-analysis of the deposited data

How the results depend on the processing

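The 6 Mup genes kept the direction of every difference of HFD from ND and of CLE and LU from HFD under each scaling, pseudocount, choice of transcripts and left-out mouse tried. Their sum differed between HFD and ND by -1.74 to -1.41 as each mouse was left out, by 1.29 to 1.61 between CLE and HFD, by 1.61 to 2.16 between LU and HFD, and by -0.74 to -0.18 between CLE and LU. A sum of only Mup3, Mup20 and Mup21, added after the data were seen, differed by -1.05 between HFD and ND and by 1.21 between LU and HFD, and all numbered Mup genes together by 1.39 between LU and HFD. Between CLE and LU, where no gene separated, the sign of Mup3 turned with median-of-ratios scaling (-0.031), with the most abundant transcript alone (-0.00100) and without CLE 4, CLE 11 or LU 8 (left-out values from -0.25 to 0.21). The sign of Mup7 turned without LU 3 (left-out values from -1.88 to 0.10), as did that of Mup21 (-0.74 to 0.11).

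Counts of called genes moved far more. In HFD against ND 736 genes passed with reference transcripts only, 667 with the most abundant transcript, 786 with no filter, and 669 to 1132 as mice were left out. In CLE against HFD 1040 passed after quantile normalization, 267 with the most abundant transcript, 32 with no filter, 99 with both groups alone, and from 30 without HFD 15 to 2269 without CLE 2. In LU against HFD 27 passed with no filter, 284 with both groups alone, and from 22 without LU 3 to 214 without LU 8. In CLE against LU 2 passed after quantile normalization, with reference transcripts only or with the most abundant transcript, 7 with no filter, 0 above 5 FPKM, and 1 to 3 as mice were left out.

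Of the male-biased genes, 6 passed in HFD against ND with no filter, and 6 to 11 as mice were left out. In CLE against HFD 9 passed after quantile normalization, 2 with the most abundant transcript, 1 with no filter, 10 above 5 FPKM, where fewer genes are tested, and 1 to 8 as mice were left out. In LU against HFD 1 passed with the most abundant transcript, 1 with no filter, and 1 to 7 as mice were left out. Of the female-biased genes, 2 passed above 5 FPKM in HFD against ND, and in both CLE and LU against HFD 3 passed with no filter and 1 above 5 FPKM.

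Of the 23 genes of growth hormone signalling and transcription, 1 passed in HFD against ND after median-of-ratios scaling, after quantile normalization, with reference transcripts only or with no filter, and 1 to 2 as mice were left out. In CLE against HFD 2 passed with reference transcripts only or with the most abundant transcript, 0 with no filter or with both groups alone, and 0 to 5 as mice were left out. In LU against HFD 1 passed with reference transcripts only, and 2 with the most abundant transcript or with both groups alone. Of the lipocalins, 1 to 3 passed in CLE against HFD as mice were left out, and in LU against HFD 0 passed with reference transcripts only, with the most abundant transcript or with no filter. Apart from the smaller number of genes tested above 5 FPKM, the cause was not tested.

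No paired analysis was possible because the sample titles name separate mice, and a number shared between groups does not mark a pair. With 3 livers per group and no read counts, the counting error of a low value cannot be separated from the spread between mice.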

Other observations

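Genes between and beside the Mup genes were looked at after the Mup values were seen. Of the genes outside the family within 200000 bases of the cluster, 8 had a mean of at least 0.5 FPKM, and none passed in any of the 4 comparisons (limma, adjusted over 11999 genes), with E130308A19Rik at an unadjusted p of 0.0234 in CLE against HFD and 0.0274 in LU against HFD, and Gm21286 at 0.0115 in LU against HFD and 0.0392 in CLE against LU. Gm13775, a non-coding transcript on the opposite strand at 61783123 to 61801286, starts next to Mup19 and was at 60.4 ± 14.0 FPKM (SD, n = 3) in ND and 68.2 ± 15.3 in HFD, a difference of 0.18 ± 0.26 on the log2 scale. Gm13773, a second one inside the cluster, was at 17.2 ± 0.83 FPKM in ND and 16.8 ± 2.44 in HFD. Fkbp15 and Slc31a2, which lie beyond Mup21, differed by 0.12 and 0.24, and Snx30 and Inip, on the other side, by 0.12 and 0.00489.

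Within Mup9, which shares 100-base windows with Mup7, 2 transcripts held most of the level in different livers. ENSMUST00000107506 was listed at 4299 FPKM in ND 3 and 4171 in CLE 4, where ENSMUST00000122177 was at 179 and 251. In ND 4 and CLE 11 the first was below 0.01 FPKM and the second at 3937 and 5216. Both were high in HFD 15, at 500.2 and 966, and in HFD 18, at 1003 and 528. All 10 rows of Mup9 were at 0 in LU 3, the liver with the highest Mup7, Mup14 and Mup19. Which of these values are failed estimates was not tested.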
